A study of Mus musculus with 6 samples.

Results

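The genes described here are 32 genes of DNA replication and S phase, taken by symbol from a count table of 55334 mouse genes, in which each of the 32 had a row and passed the filter on low counts (16049 genes did). They were measured by polyA RNA sequencing in Lewis lung carcinoma cells, a mouse lung cancer line carrying green fluorescent protein (GFP), with either a scrambled guide RNA (Scramble, 3 libraries) or a guide directed at Jag2, which encodes a ligand of Notch receptors (JAG2KO, 3 libraries). Per the labels both kinds of cells grew as flank tumours in mice and were sorted at endpoint as GFP-positive, CD45-negative and DAPI-negative cells, so all 6 libraries share the tumour growth, the GFP tag and the sort. The age, sex and strain of the mice, and whether the edited cells are 1 clone or a pool, were not stated in the labels. The labels do not tie each library to a separate mouse, so p-values cover no more than the spread between these 6 samples, and that spread may be technical. The JAG2KO columns are numbered 2 to 4 while the sample titles run from 1 to 3, and are called here by their column names, JagKO2, JagKO3 and JagKO4.

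Chromosomes are copied once per cell cycle. In G1 the proteins Cdc6 and Cdt1 load the ring of the Mcm2 to Mcm7 proteins, the replicative helicase, onto origins, which is called licensing. At the start of S phase the kinases Cdc7 and cyclin E with Cdk2 turn the ring into an active helicase with Cdc45 and the GINS complex, after which the polymerases copy each strand on the sliding clamp Pcna with nucleotides made by ribonucleotide reductase, thymidylate synthase and thymidine kinase. Most of these genes are targets of E2F transcription factors, whose activity is released when Rb proteins are phosphorylated late in G1, and their RNA is commonly read as a sign of proliferating cells, including tumour cells.

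Promoters are shown first for the 3 genes with the smallest p among those lower in JAG2KO (Rrm2, Ccne1 and Ung) and for the most abundant gene that did not pass the threshold (Mcm6). They come from RefSeq on GRCm38.p6, from 250 bases before to 50 bases after the annotated start, written 5′ to 3′ on the gene's strand. Capitals mark matches, on either strand, to an E2F core, spelled TTCCCGC in its first form, TTCGCGC in the next, TTGGCGC in another and TTGCCGC in the last, or to the CCAAT box of the factor NF-Y, and neighbouring matches can overlap.
Rrm2: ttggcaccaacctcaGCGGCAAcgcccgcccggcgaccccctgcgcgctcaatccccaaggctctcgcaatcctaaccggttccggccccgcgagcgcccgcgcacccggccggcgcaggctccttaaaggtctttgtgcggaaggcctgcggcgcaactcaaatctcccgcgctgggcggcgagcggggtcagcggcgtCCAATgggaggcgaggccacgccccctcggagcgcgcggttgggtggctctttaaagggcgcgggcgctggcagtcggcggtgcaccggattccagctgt
Ccne1: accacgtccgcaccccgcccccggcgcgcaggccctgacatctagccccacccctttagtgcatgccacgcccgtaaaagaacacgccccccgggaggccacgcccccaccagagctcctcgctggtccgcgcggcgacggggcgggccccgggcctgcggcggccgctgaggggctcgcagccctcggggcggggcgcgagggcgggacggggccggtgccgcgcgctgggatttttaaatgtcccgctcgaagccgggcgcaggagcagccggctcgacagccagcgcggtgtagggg
Ung: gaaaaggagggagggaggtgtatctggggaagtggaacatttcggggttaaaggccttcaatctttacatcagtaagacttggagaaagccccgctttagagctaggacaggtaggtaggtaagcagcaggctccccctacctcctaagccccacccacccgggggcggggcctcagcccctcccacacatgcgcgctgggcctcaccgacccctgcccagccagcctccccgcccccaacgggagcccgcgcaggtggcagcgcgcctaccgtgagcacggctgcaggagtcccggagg
Mcm6: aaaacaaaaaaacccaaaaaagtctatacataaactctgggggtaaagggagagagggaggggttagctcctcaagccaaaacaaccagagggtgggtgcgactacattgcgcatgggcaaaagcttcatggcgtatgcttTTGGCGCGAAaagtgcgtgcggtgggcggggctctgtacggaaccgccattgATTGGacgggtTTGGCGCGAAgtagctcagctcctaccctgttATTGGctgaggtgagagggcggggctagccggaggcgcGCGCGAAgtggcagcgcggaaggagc
The Rrm2 window (chr12:24708004-24708303, plus strand) held 1 E2F core 235 bases and 1 CCAAT box 50 bases before the start. The Mcm6 window (chr1:128359656-128359955, minus strand) held 5 E2F cores, of which 4 form overlapping pairs beginning 109 and 46 bases before the start, and 2 CCAAT boxes. The windows of Ccne1 (chr7:38107441-38107740, minus strand) and Ung (chr5:114130185-114130484, plus strand) held neither set of letters. Of the 32 genes, 26 had a promoter in the table, in 30 windows, because some have several starts. An E2F core was found in 66.7% of those 30 windows and in 9.57% of all 32851 windows of the table, and a CCAAT box in 56.7% and 37.4%. Among genes with a promoter in the table, 6 of 11 that were lower in JAG2KO and 11 of 15 that were not past the threshold had an E2F core. For the CCAAT box these were 6 of 11 and 9 of 15.

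Libraries held 37036772 to 43923565 counts, and 3 counts were worth 0.068 to 0.0811 CPM (CPM being the count scaled to library size), far below the 8.39 to 350.0 CPM at which the 32 genes were measured on average. Jag2 itself was near 1 CPM in every library, at 1.52, 1.1 and 1.02 CPM in Scramble 1, 2 and 3 and at 0.514, 0.799 and 1.11 CPM in JagKO2, JagKO3 and JagKO4, so its RNA level does not check the labels. Of the lung and epithelial markers, Nkx2-1 had 0 counts in every library, Sftpc and Scgb1a1 at most 0.0541 and 0.0763 CPM, and Epcam and Cdh1 at most 1.45 and 1.36 CPM. The keratin genes Krt18 and Krt8 were present, at 259 to 332 and 3.17 to 128 CPM, and the mesenchymal filament gene Vim had 4760 to 5810 CPM. The first principal component (55.2% of the variance) separated the groups, with Scramble libraries at -49.6 to -39.8 and JAG2KO libraries at 41.0 to 47.8. JagKO2 and JagKO3 stood apart on the second principal component (13.8% of the variance, 39.5 and -36.4).

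In JAG2KO, 11 of the 32 genes were lower and 0 higher (edgeR quasi-likelihood test, adjusted p under 0.05 over all tested genes). Over all tested genes 24.3% were called, 12.5% were lower and 11.8% higher, and over the 8872 tested genes within the same range of mean CPM 16.2% were lower and 14.4% higher. With an unadjusted p under 0.05, 13 of the 32 were lower and 0 higher, and DESeq2 and limma-voom each called 11 lower and 0 higher. The median log2 fold change of the 32 genes was -0.18, beside 0.0 over all tested genes, and 27 of the 32 lay below 0. Without overlap in either direction were 40.3% of all tested genes. The CPM of every Scramble library exceeded that of every JAG2KO library for 15 of the 32, where this held for 20.9% of all tested genes, and the reverse order was found for 0 of the 32 (19.5% of all tested genes). The differences were small: of the 11 lower genes, 1 (Ccne1) was lower by at least 1.5-fold. Without Scramble replicate 3, 7 genes were called, with Mcm5, Cdc6, Pola1 and E2f1 no longer past the threshold. Those 7, Mcm3, Cdt1, Cdc45, Pcna, Rrm2, Ccne1 and Ung, passed under each of 12 alternative settings.

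**Figure D1:**
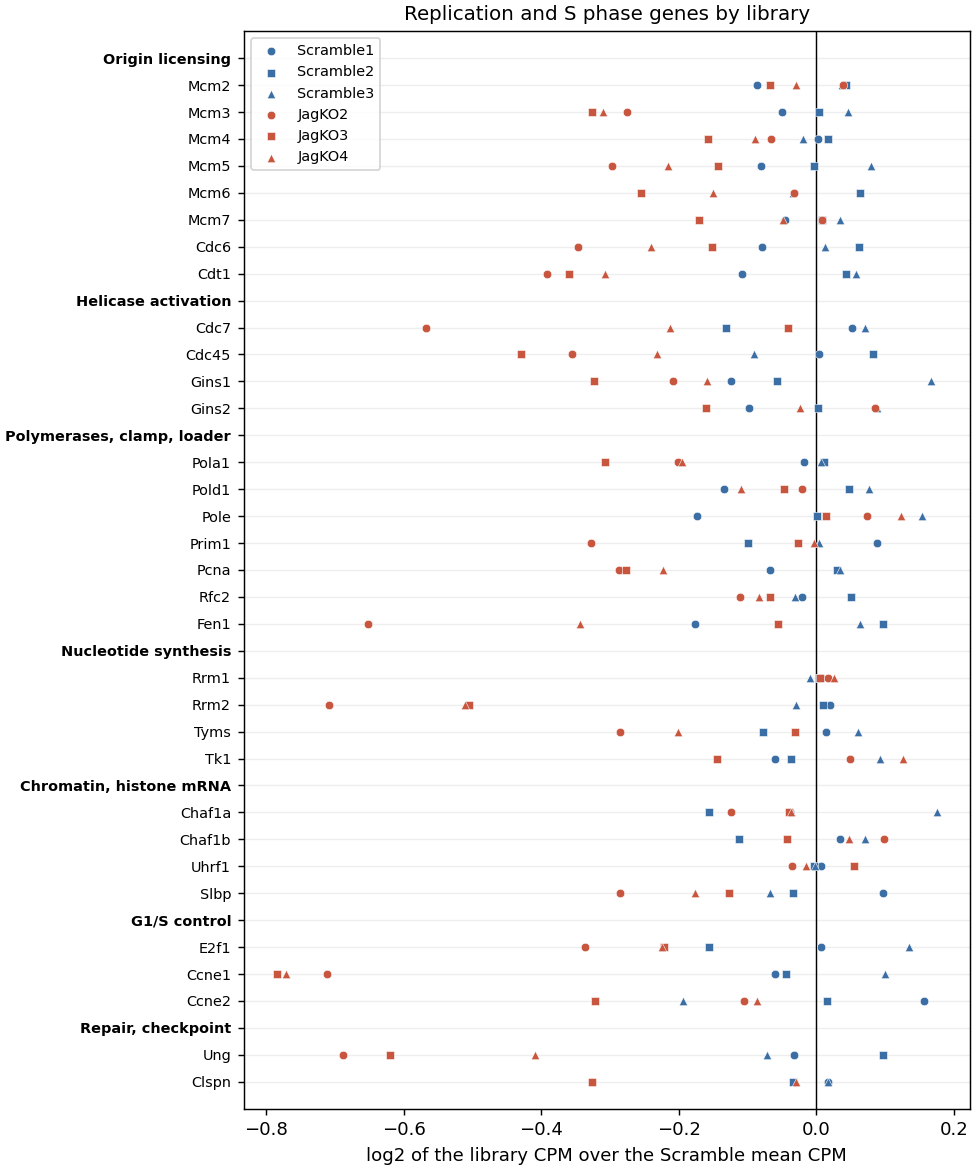
Each row is 1 gene and each point 1 library, placed at the log2 of its CPM over the mean CPM of the 3 Scramble libraries (0); blue points are Scramble and red points JAG2KO. The red points of Ccne1, Rrm2 and Ung lie farthest to the left of their blue points, and those of Rrm1 and Uhrf1 lie close to 0.

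Of the 8 origin licensing genes, 4 were lower and 4 did not pass the threshold, with a median log2 fold change of -0.18. Here and for the roles below, the share to set beside such counts is the 12.5% of all tested genes that were lower. The loading factor gene Cdt1 had 111, 124 and 125 CPM in Scramble 1, 2 and 3 and 91.4, 93.5 and 97.0 CPM in JagKO2, JagKO3 and JagKO4. All 3 JAG2KO libraries lay below all Scramble libraries, at 78.3% of the Scramble mean (log2 fold change -0.35, SE 0.07, edgeR adjusted p = 0.00229). Cdc6, the ATPase that works with Cdt1, measured 47.4, 52.2 and 50.5 CPM in Scramble and 39.3, 45.04 and 42.3 CPM with the Jag2 guide, again without overlap (log2 fold change -0.24, SE 0.08, edgeR adjusted p = 0.042). The Cdc6 call was lost in 6 of the 12 settings (adjusted p = 0.034 to 0.169 over all of them), among them the removal of any 1 of the 3 Scramble libraries, JagKO2 or JagKO4.

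Of the 6 subunit genes of the helicase ring, 2 were lower. Mcm3 had 296, 307 and 316 CPM in Scramble libraries, against 253, 244 and 247 CPM in JAG2KO (log2 fold change -0.30, SE 0.06, edgeR adjusted p = 0.00277). Mcm5 had 206, 217.5 and 230.5 CPM in the Scramble libraries and 177.5, 198 and 188 CPM in the JAG2KO ones (log2 fold change -0.22, SE 0.07, edgeR adjusted p = 0.0348). The groups did not overlap for either gene, but Mcm5 lost its call in 4 settings (adjusted p = 0.0216 to 0.126 over all settings): without Scramble replicate 2 or 3, JagKO2 or JagKO4. The other 4 subunits did not pass: Mcm6, Mcm4, Mcm7 and Mcm2 had log2 fold changes of -0.14, -0.10, -0.07 and -0.02. Their 95% intervals were -0.29 to 0.01, -0.23 to 0.02, -0.21 to 0.07 and -0.16 to 0.12. Differences between the subunits were not tested. Mcm6 passed in 1 setting, without JagKO2 (log2 fold change -0.20, adjusted p = 0.0345, range over all settings 0.0345 to 0.452).

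The ring holds 1 copy of each subunit, while the RNA levels of the subunits differed. Scaled per kilobase of the longest principal transcript (GENCODE M21), the Scramble level rose from 54.8 ± 0.703 CPM per kb for Mcm4 (SD, n = 3) through 61.8 ± 3.09 for Mcm2, 64.5 ± 3.58 for Mcm5 and 71.7 ± 2.01 for Mcm7 to 101 ± 3.37 for Mcm3 and 126 ± 4.92 for Mcm6. Mcm2 and Mcm5 differed by less than their SD. In JAG2KO, Mcm4 (51.0 ± 1.68 CPM per kb) was followed by Mcm5 (55.5 ± 2.97) and then Mcm2 (61.0 ± 2.28), with Mcm7, Mcm3 and Mcm6 at 68.4 ± 4.28, 81.8 ± 1.49 and 114 ± 8.83. Over all 32 genes the clamp gene Pcna had the highest level per kilobase in both groups (220.3 ± 8.62 in Scramble and 184 ± 4.38 in JAG2KO) and Fen1 the lowest (3.94 ± 0.396 and 3.13 ± 0.643). The exons of Mcm7 and Fen1 share positions with other genes, and Pcna has named pseudogenes, so the levels of these genes are uncertain.

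Of the 4 genes that turn licensed origins into active helicases, 1 was lower, and all 4 lay below 0 (median log2 fold change -0.24). Cdc45, a subunit of the active helicase, measured 67.5, 71.3 and 63.2 CPM in Scramble and 52.6, 50.02 and 57.4 CPM with the Jag2 guide. The groups did not overlap, and the log2 fold change came to -0.34 (SE 0.08, edgeR adjusted p = 0.0079). The origin kinase gene Cdc7 had 45.1, 39.7 and 45.7 CPM in Scramble libraries, against 29.3, 42.3 and 37.5 CPM in JAG2KO, where JagKO3 lay within the Scramble range. Its log2 fold change was -0.26 (95% interval -0.52 to 0.00, edgeR adjusted p = 0.141); Cdc7 passed without a low-count filter and without JagKO3 (adjusted p = 0.0481 and 0.04, range over all settings 0.04 to 0.366), and its log2 fold change was -0.38 without JagKO3 and -0.12 without JagKO2. Dbf4, which encodes the subunit that activates the Cdc7 kinase and is not one of the 32, differed much more. It measured 248.5, 234 and 215 CPM in the Scramble libraries and 43.3, 48.0 and 47.1 CPM in the JAG2KO ones (log2 fold change -2.33, SE 0.08, edgeR adjusted p = 1.71e-09). Dbf4 lies on chromosome 5 and, unlike the 32 genes, was not set beside its chromosomal neighbours. The part of the surrounding segment in its change was not tested. The GINS subunit genes did not pass. Gins1 measured 19.0, 19.9 and 23.2 CPM in the Scramble libraries and 17.9, 16.5 and 18.5 CPM in the JAG2KO ones, without overlap (log2 fold change -0.23, and -0.14 without Scramble replicate 3). Gins2 measured 31.8, 34.1 and 36.2 CPM against 36.1, 30.4 and 33.5 CPM, with overlap (log2 fold change -0.03). The log2 ratio of their counts within a library was -0.74, -0.78 and -0.64 in Scramble and -1.01, -0.88 and -0.85 in JAG2KO, lower in every JAG2KO library.

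Of the 7 genes for polymerases, primase, clamp, clamp loader and Okazaki fragment processing, 2 were lower and 5 did not pass, with a median log2 fold change of -0.11. Pcna, the sliding clamp, measured 319, 341.5 and 342.5 CPM in Scramble and 274, 276 and 286 CPM with the Jag2 guide. The groups did not overlap, and JAG2KO was at 83.4% of the Scramble mean (log2 fold change -0.26, SE 0.06, edgeR adjusted p = 0.00762). Pola1, the catalytic subunit of the polymerase that starts each strand, measured 75.8, 77.3 and 77.1 CPM in Scramble libraries, against 66.8, 62.0 and 67.1 CPM in JAG2KO, without overlap (log2 fold change -0.23, SE 0.06, edgeR adjusted p = 0.0209). The Pola1 call was lost without any 1 of the Scramble libraries or JagKO3 (adjusted p = 0.015 to 0.083 over all settings). The catalytic subunits of the leading and lagging strand polymerases did not pass. Pole had 52.5, 59.3 and 65.8 CPM in the Scramble libraries and 62.3, 59.8 and 64.5 CPM in the JAG2KO ones, and Pold1 had a log2 fold change of -0.06, with overlapping groups for both. The 95% intervals were -0.11 to 0.26 for Pole and -0.21 to 0.09 for Pold1. The primase gene Prim1, the clamp loader gene Rfc2 and the flap nuclease gene Fen1 had log2 fold changes of -0.11, -0.09 and -0.33; Fen1 was the least precise, with an interval of -0.70 to 0.04 and values of -0.19 without JagKO2 and -0.49 without JagKO3. Prim1 was at -0.01 without JagKO2 and -0.05 without Scramble replicate 1.

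Of the 4 nucleotide synthesis genes, 1 was lower and 3 did not pass, with a median log2 fold change of -0.08. Rrm2, the small subunit of ribonucleotide reductase and the subunit whose level follows S phase, had 165, 164 and 159 CPM in Scramble and 99.5, 114.5 and 114 CPM with the Jag2 guide. Every JAG2KO library was far below every Scramble library, at 67.2% of the Scramble mean (log2 fold change -0.57, SE 0.07, edgeR adjusted p = 0.000103). The large subunit gene Rrm1 was nearly level over the 6 libraries, at 187, 186.5 and 185 CPM in Scramble libraries, against 188, 187 and 189 CPM in JAG2KO (log2 fold change 0.02, 95% interval -0.11 to 0.14). The Rrm2 to Rrm1 ratio within a library, which does not depend on how libraries are scaled, was 0.882, 0.878 and 0.861 in Scramble and 0.529, 0.613 and 0.602 in JAG2KO. Tyms, which makes thymidylate, had 42.9, 40.3 and 44.3 CPM in the Scramble libraries and 34.9, 41.6 and 36.96 CPM in the JAG2KO ones (log2 fold change -0.17, 95% interval -0.36 to 0.02), with JagKO3 inside the Scramble range. Tk1, the salvage thymidine kinase, had a log2 fold change of 0.02 (95% interval -0.16 to 0.19).

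**Figure D2:**
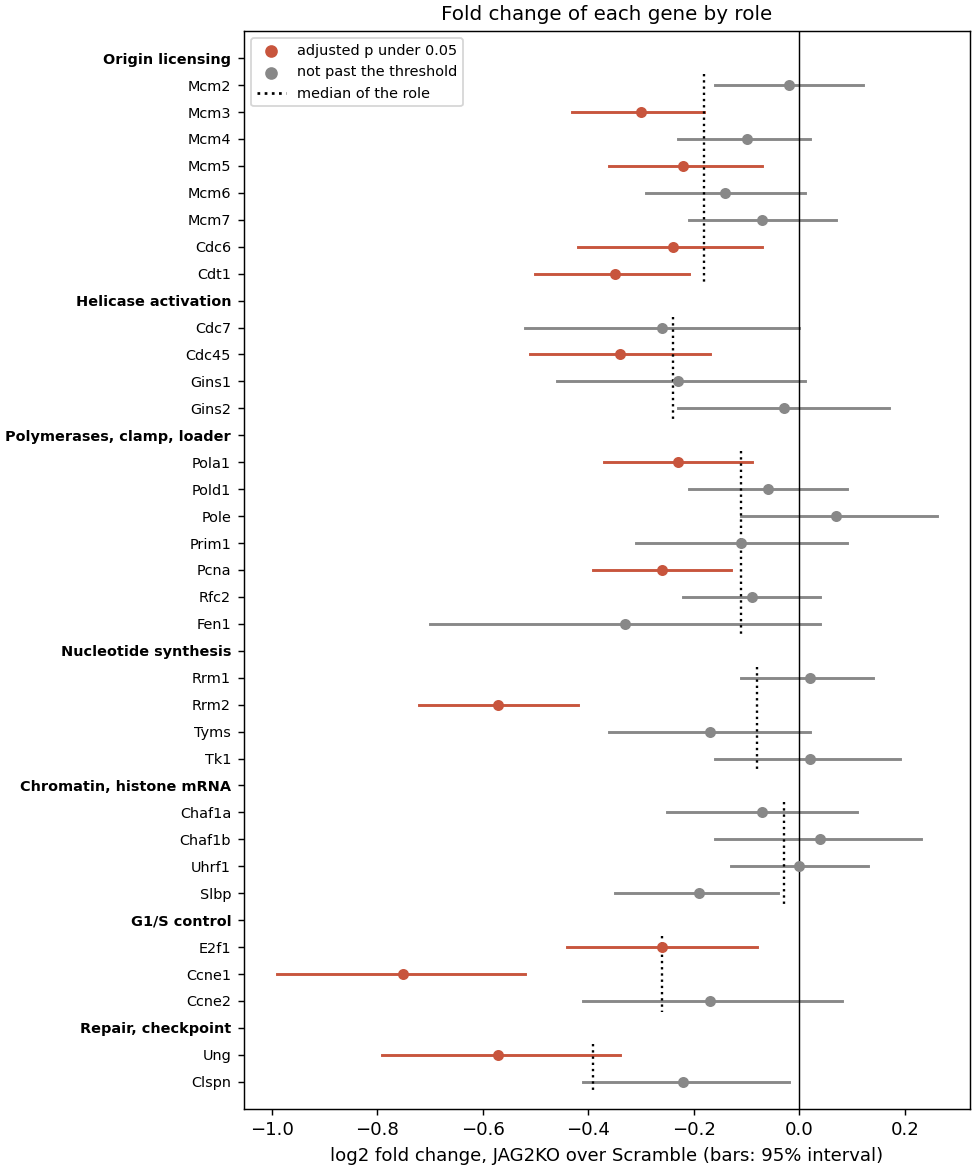
Points are edgeR log2 fold changes of JAG2KO over Scramble (3 libraries each), horizontal bars their 95% intervals, and dotted lines the median of each role; red marks genes past the threshold. Red points appear in every role but the chromatin one; Ccne1, Rrm2 and Ung lie farthest left.

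The nucleotide genes had the median nearest 0 of the 3 roles compared, licensing (-0.18), polymerase (-0.11) and nucleotide synthesis (-0.08), yet held the lower gene with the largest change among them, Rrm2. Licensing had 4 of 8 genes called, polymerase 2 of 7 and nucleotide synthesis 1 of 4. Between roles these medians were not tested. Summed over the genes of a role, licensing measured 1619, 1712 and 1706 CPM in Scramble and 1536, 1452 and 1500 CPM with the Jag2 guide. Polymerase genes summed to 738, 781 and 791 CPM in Scramble libraries, against 676, 688 and 701 CPM in JAG2KO, and nucleotide synthesis genes to 481, 478 and 484.5 CPM in the Scramble libraries and 416, 424.5 and 439 CPM in the JAG2KO ones. In each of the 3 sums all JAG2KO libraries were below all Scramble libraries. Most of the nucleotide difference was Rrm2. Its Scramble and JAG2KO means were 162.5 and 109.3 CPM, beside 481.4 and 426.4 CPM for the sum. Pcna made up most of the polymerase difference (means 334.4 and 278.8 CPM, beside 770 and 688.3 CPM). The nucleotide and polymerase sums thus mainly follow genes already called and do not show a shift of the whole role.

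Of the 4 genes that rebuild chromatin behind the fork or handle histone messages, 0 were called in either direction by edgeR, DESeq2 or limma-voom, and 1 (Slbp) was lower at an unadjusted edgeR p under 0.05. Slbp, which binds the stem-loop of histone messages, had 81.5, 74.4 and 72.7 CPM in Scramble and 62.5, 69.8 and 67.4 CPM with the Jag2 guide; the groups did not overlap, but the log2 fold change of -0.19 did not pass (SE 0.07, edgeR adjusted p = 0.0712). Uhrf1, which directs maintenance DNA methylation, had 205, 204 and 204 CPM in Scramble libraries, against 199, 212 and 202 CPM in JAG2KO, with an interval of -0.13 to 0.13. Chaf1a measured 100.4, 92.5 and 116 CPM in the Scramble libraries and 94.6, 100.3 and 100.5 CPM in the JAG2KO ones, and Chaf1b 25.2, 22.8 and 25.9 CPM against 26.4, 23.9 and 25.4 CPM; the groups overlapped for both. These subunits of chromatin assembly factor 1 had log2 fold changes of -0.07 and 0.04 (95% intervals -0.25 to 0.11 and -0.16 to 0.23). The median of the role was -0.03, and 0.01 without Scramble replicate 3.

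Of the 3 genes that control entry into S phase, 2 were lower. Ccne1, cyclin E1, had 18.3, 18.5 and 20.4 CPM in the Scramble libraries and 11.7, 11.1 and 11.2 CPM in the JAG2KO ones. This was the largest change among the 32 genes, 59.2% of the Scramble mean, with a gap between the groups far wider than the spread in either (log2 fold change -0.75, SE 0.11, edgeR adjusted p = 0.000314). Its paralog Ccne2, cyclin E2, had 25.6, 23.2 and 20.1 CPM in Scramble and 21.4, 18.4 and 21.6 CPM with the Jag2 guide, with overlapping groups (log2 fold change -0.17, 95% interval -0.41 to 0.08, edgeR adjusted p = 0.317; -0.07 without Scramble replicate 1 and -0.26 without Scramble replicate 3). The Ccne1 to Ccne2 ratio of counts within a library was 0.714, 0.797 and 1.02 in Scramble and 0.546, 0.603 and 0.517 in JAG2KO. The activator E2f1 had 69.4, 62.0 and 75.8 CPM in Scramble libraries, against 54.7, 59.2 and 59.1 CPM in JAG2KO (log2 fold change -0.26, SE 0.08, edgeR adjusted p = 0.0382). The call of E2f1 was lost without Scramble replicate 1 or 3 or any 1 of the JAG2KO libraries (adjusted p = 0.018 to 0.148 over all settings).

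Of the pair of repair and checkpoint genes, Ung was lower. Ung removes uracil from DNA, including uracil built in during replication. It measured 25.5, 27.8 and 24.8 CPM in the Scramble libraries and 16.1, 16.9 and 19.6 CPM in the JAG2KO ones, without overlap, at 67.5% of the Scramble mean (log2 fold change -0.57, SE 0.10, edgeR adjusted p = 0.00197). Clspn, the fork protein that carries the signal from Atr to Chek1, had 52.0, 50.3 and 52.0 CPM in Scramble and 41.0, 41.0 and 50.4 CPM with the Jag2 guide. JagKO4 alone lay inside the Scramble range, and the log2 fold change of -0.22 did not pass (SE 0.09, edgeR adjusted p = 0.0962); without JagKO4 it was -0.33 (adjusted p = 0.0216, range over all settings 0.0216 to 0.256).

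The 4 within-library ratios were compared by an exact two-sided permutation test over the 6 libraries, in which 3 against 3 cannot give a p below 0.1. The difference in mean log2 ratio, JAG2KO minus Scramble, was -0.59 for Rrm2 to Rrm1 and -0.59 for Ccne1 to Ccne2 (each exact permutation p = 0.1, adjusted over the 4 ratios 0.133). It was -0.19 for Gins1 to Gins2 (exact permutation p = 0.1, adjusted 0.133). These 3 ratios were lower in every JAG2KO library than in any Scramble library. For Chaf1a to Chaf1b it was -0.10 (exact permutation p = 0.4, adjusted 0.4), and the groups overlapped.

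**Figure D3:**
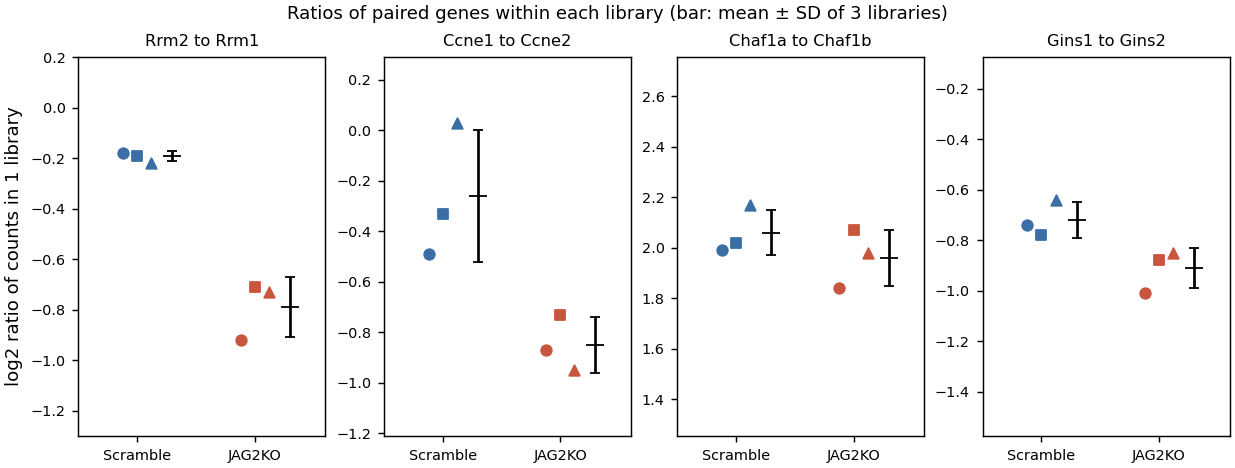
Each panel shows the log2 ratio of the counts of a pair of genes in each of 3 Scramble (blue) and 3 JAG2KO (red) libraries, on vertical axes of equal span, with black bars for mean ± SD. The Rrm2 to Rrm1 panel has the tightest Scramble group (SD 0.02) and JAG2KO points from -0.92 to -0.71; the Chaf1a to Chaf1b groups overlap.

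Libraries of a group differed in how low the genes were. Averaged over the 32 genes, the log2 level relative to the Scramble mean was -0.028, -0.006 and 0.034 in Scramble 1, 2 and 3, and -0.228, -0.2 and -0.158 in JagKO2, JagKO3 and JagKO4. Of the 32 genes, 14 were lowest in JagKO2, 12 in JagKO3 and 0 in JagKO4, and 14 were highest in Scramble 3. JagKO4 was thus the JAG2KO library nearest to Scramble on average.

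Some markers of other cell types were higher in JAG2KO. Which cells these RNAs came from was not tested. Of 13 fibroblast and pericyte markers 8 were higher and 1 lower. Their summed level was 4899 to 4967 CPM in Scramble and 6275 to 9861 CPM in JAG2KO, highest in JagKO2, and Col3a1 gave most of it. The lower marker, Fap, had the largest change of the list, from 17.9 to 20.1 CPM in Scramble to 2.45 to 4.73 CPM in JAG2KO (log2 fold change -2.4). Of 13 macrophage markers 4 were higher and 1 lower (64.4 to 73.8 CPM in Scramble, 98.8 to 118 CPM in JAG2KO), and Ptprc, which encodes the CD45 used in the sort, had 2.09 to 2.24 CPM in Scramble and 2.42 to 3.89 CPM in JAG2KO. Of 13 endothelial markers 6 were higher and 1 lower (144 to 147 CPM in Scramble, 130.5 to 155 CPM in JAG2KO). Eng, the lower marker, was the most abundant of the 13. Eng measured 98.0, 104 and 101 CPM with the scrambled guide, against 85.2, 71.7 and 63.4 CPM with the Jag2 guide. Its log2 fold change was -0.46, beside a median of 0.77 over the 13, so the sum does not follow the higher markers. Of 10 lymphocyte markers 3 could be tested and 0 were called by edgeR or limma-voom (1, Cd79a, was higher at an unadjusted edgeR p under 0.05 and was called by DESeq2); they summed to 1.35 to 5.03 CPM, and Ncr1 was at 0 in 5 libraries. The part of these markers in the lower replication genes was not tested, and in bulk RNA fewer cycling cells and less RNA per cycling cell cannot be told apart.

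Calls were unevenly spread over chromosomes, with 141 of 587 tested genes lower on chromosome 12 and 74 of 1195 on chromosome 7, so each gene was set beside the 20 nearest tested genes on its chromosome. For Ccne1 (chromosome 7, 38097984 to 38107534, minus strand, GRCm38) the median log2 fold change of the neighbours was 0.02, with 1 neighbour higher and 1 lower. For Ung (chromosome 5, 114130386 to 114139323, plus strand) it was -0.03, with 1 higher and 2 lower, and for Rrm2 (chromosome 12, 24708241 to 24714146, plus strand) -0.09, with 4 higher and 4 lower. Pola1 (chromosome X, 93304767 to 93632155, minus strand) had -0.23 beside a neighbour median of -0.24, with 2 of those neighbours lower and 1 higher. Around Cdc45 (chromosome 16, 18780447 to 18811987, minus strand) 8 of 20 neighbours were lower and the median was -0.21, and around Mcm3 (chromosome 1, 20802968 to 20820312, minus strand) 3 were lower and the median was -0.15. The part of the surrounding segment in the change of a gene was not tested. Ccne2 (chromosome 4, 11191351 to 11204779, plus strand) lay among genes that were higher, 6 of 20, with a median of 0.40.

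**Figure D4:**
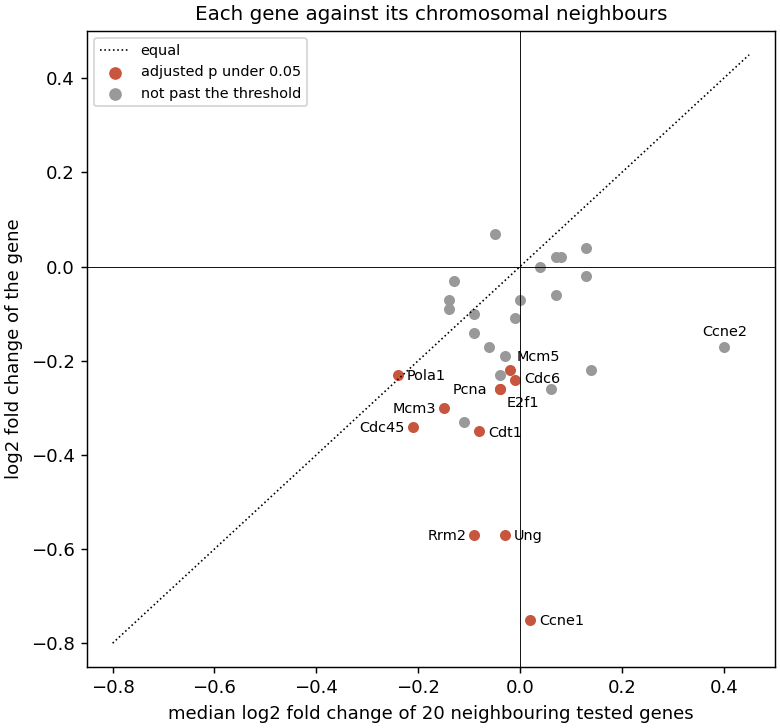
Each point is 1 of the 32 genes, with the median log2 fold change of its 20 neighbouring tested genes on the horizontal axis and its own on the vertical axis; the dotted line marks equal values and red the genes past the threshold. Ccne1, Rrm2, Ung and Ccne2 lie far below the line and Pola1 close to it. Ccne2, which was not past the threshold, stands alone at 0.40 on the horizontal axis.

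Other genes of the same processes, from lists of background knowledge, were lower more often than higher in the polymerase and fork list. There 8 of 29 tested genes were lower and 1 higher, with a median log2 fold change of -0.10. The lower ones with the smallest p were the polymerase epsilon accessory subunit genes Pole3 and Pole4 (fold changes on the log2 scale -0.45 and -0.65; edgeR adjusted p = 0.000392 and 0.000453) and Pola2, the partner of Pola1 (159 ± 2.66 CPM in Scramble libraries, against 123 ± 1.46 CPM in JAG2KO, n = 3). Further subunits of the polymerases, primase and clamp loader in that list, named after their values were seen, were mixed. Prim2, Rfc3, Rfc4 and Rfc5 were lower, with log2 fold changes of -0.26, -0.29, -0.30 and -0.27. Rfc1, Pold2, Pold3, Pold4 and Pole2 did not pass (0.00, 0.14, -0.03, -0.31 and -0.10), and every JAG2KO library was above every Scramble library for Pold2. Of 20 other licensing and firing genes 3 were lower and 0 higher (edgeR; 1 higher at an unadjusted p under 0.05, and 0 by DESeq2 and limma-voom), with a median of -0.03: Dbf4 and the origin recognition complex genes Orc2 (73.5 ± 3.16 CPM in the Scramble libraries and 54.5 ± 1.09 CPM in the JAG2KO ones) and Orc6 (log2 fold change -0.33, edgeR adjusted p = 0.00768). Of 28 other nucleotide synthesis genes 4 were lower and 2 higher, with a median of -0.04. Lower genes were about as frequent in this list, and in the licensing and firing list, as among all tested genes (12.5%). Higher genes were not more frequent in either list than among all tested genes (11.8%). The guanine nucleotide enzyme gene Impdh1 had 138 ± 3.92 CPM in Scramble and 81.9 ± 5.77 CPM with the Jag2 guide, the log2 fold change of the pyrimidine enzyme gene Umps was -0.54 and that of the nucleoside diphosphate kinase gene Nme4 0.79 (edgeR adjusted p = 0.00022 and 0.000409).

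Of 27 tested regulators of the passage from G1 to S, 5 were lower and 2 higher by edgeR, with a median of -0.02, shares near those over all tested genes (12.5% lower, 11.8% higher). DESeq2 called 6 lower and 4 higher, and limma-voom 7 and 2. Rb1, the pocket protein that restrains E2F, had 14.0, 12.3 and 10.9 CPM in Scramble libraries, against 23.6, 18.2 and 21.4 CPM in JAG2KO, without overlap (log2 fold change 0.76, SE 0.13, edgeR adjusted p = 0.00125). E2f6, a repressor of the E2F family, had 57.7, 57.7 and 58.1 CPM in the Scramble libraries and 37.7, 36.4 and 31.8 CPM in the JAG2KO ones (log2 fold change -0.71, SE 0.08, edgeR adjusted p = 6.2e-05). The cyclin D3 gene Ccnd3 was lower with a log2 fold change of -0.33 (edgeR adjusted p = 0.00308). G2 and mitosis genes, the nearest other part of the cell cycle, had 9 of 31 tested genes lower (29.0%) and 0 higher (2 at an unadjusted p under 0.05; DESeq2 and limma-voom called 9 lower and 0 higher), with a median of -0.12, beside 34.4% and -0.18 for the 32 replication genes; the difference between the lists was not tested. Ccnb2, cyclin B2, had 102, 100.2 and 92.1 CPM in Scramble and 68.1, 66.7 and 63.4 CPM with the Jag2 guide, and the spindle checkpoint gene Mad2l1 and the cytokinesis gene Anln were lower by log2 differences of -0.57 and -0.35, at an edgeR adjusted p = 0.000128 and 0.00214. The other 22 genes of that list did not pass, among them Mki67 and Ccnb1, named after their values were seen (log2 fold changes 0.01 and 0.10).

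**Figure D5:**
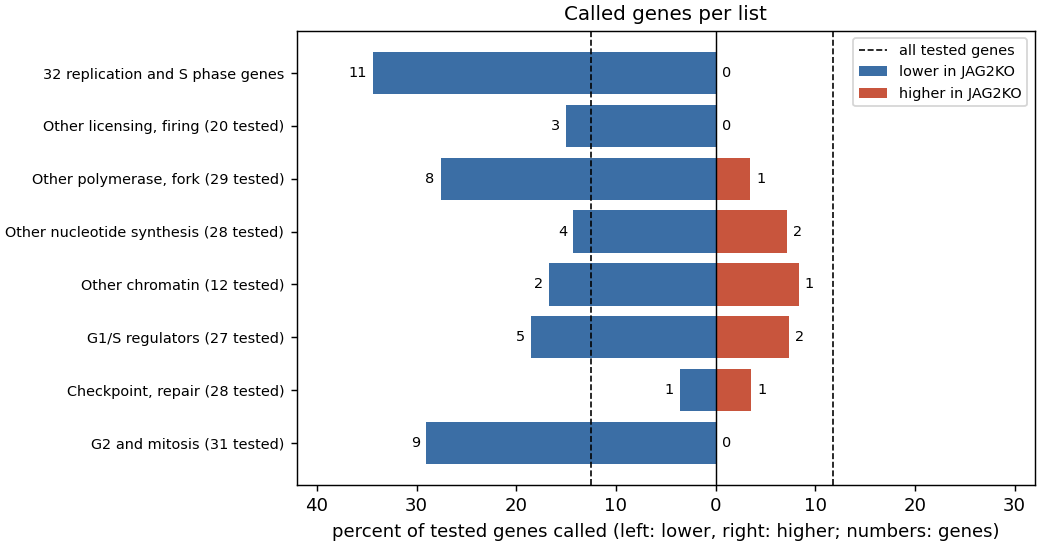
Bars show the percent of tested genes in each list that were lower (left, blue) or higher (right, red) in JAG2KO at an edgeR adjusted p under 0.05, with the number of genes at the bar ends; dashed lines mark all tested genes (12.5% lower, 11.8% higher). The 32 replication and S phase genes reach 34.4% lower with 0 higher, G2 and mitosis genes 29.0% lower with 0 higher.

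The levels of 10 of the 32 genes are uncertain, because their exons share positions with another gene in GENCODE M21 and no source here says whether counting used strand: Mcm7, Cdc45, Gins2, Pole, Rfc2, Fen1, Tk1, Chaf1a, Slbp and Ccne2. Pcna and Tyms have named pseudogenes that can share reads. Of the 11 lower genes these overlaps and named copies touch Cdc45 and Pcna. Only pseudogenes named after their gene were looked for, so copies under other names could share reads with any of the 32.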

How the data were processed

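PolyA RNA was sequenced in 6 libraries, 3 per group. The deposited table holds raw counts (whole numbers) for 55334 versioned Ensembl IDs. The tools, per the submitters' processing notes, were STAR 2.7.7a and HTSeq 0.11.2. Build, annotation, strandedness and read filters: not given in the sources used here. Symbols came from a table of gene IDs, of which 55154 matched, and where IDs shared a symbol the most abundant was used. Positions, transcript lengths and exon overlaps are from GENCODE M21 (GRCm38), which may differ from the authors' annotation.

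The test was edgeR 4.0.16 (R 4.3.3). Low genes were removed with filterByExpr (minimum count 10, minimum total 15), TMM set the scaling, and the quasi-likelihood F test was followed by Benjamini-Hochberg adjustment over 16049 genes, called under 0.05. SE is the absolute log2 fold change divided by the square root of F, and 95% intervals use the test's degrees of freedom. CPM uses TMM-scaled library sizes. Ratios used counts plus 0.5. Alternatives were RLE factors, library totals, no filter, CPM of at least 1 in 3 libraries, DESeq2 1.42.0, limma-voom (limma 3.58.1) and each library left out. Replicates were not copies of each other: chi-square over degrees of freedom ran from 12.2 to 31.0 for pairs within a group.

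The 32 genes and the other lists were chosen with earlier results of these data known. Values in every library are given for called genes, the ratio pairs, the 2 genes of smallest p in a role with no call, and, chosen after their values were seen, some further genes of the 32. In the other lists up to 3 called genes of smallest p are named, and others only where said. On counts simulated from the means, depths and dispersions of these libraries (5 draws, 200 changed genes, 15656 to 15706 tested), the share of 1.5-fold changes found was 51.0%, of 2-fold changes 59.7% and of 4-fold changes 80.6%; unchanged genes made up 7.55% of calls. The changed genes were drawn at random from tested genes of any level, so these shares do not describe the 32 genes alone.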

Additional observations from a re-analysis of the deposited data

How the results depend on the processing

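The count of lower genes among the 32 was 11 with RLE factors, library totals alone, no low-count filter, the CPM filter, DESeq2 and limma-voom, and 7 to 10 with each library left out in turn (7 without Scramble replicate 3); 0 genes were higher in every one of these settings. Leaving out a library moved the median log2 fold change of the helicase activation genes between -0.27 and -0.18 (-0.18 without Scramble replicate 3 or JagKO2), that of the G1/S control genes between -0.32 and -0.22 (-0.32 without Scramble replicate 2), and that of the chromatin genes between -0.07 and 0.01, where it turned positive without Scramble replicate 3. The cause was not tested. The polymerase median, -0.11, lay between -0.17 (without JagKO4) and -0.08 (without JagKO2). The licensing, polymerase, nucleotide synthesis and repair medians and the 4 ratios kept their sign in every setting run, and 26 of the 32 genes did so in all 12 settings. Calls of Lsm11 were lost without Scramble replicate 1 or 3, JagKO2 or JagKO4 (adjusted p = 0.0812 to 0.128). No paired analysis was possible because the JAG2KO columns do not carry the replicate numbers of the sample titles. Most differences among the 32 genes were below 1.5-fold, the smallest change in the simulated data, so a gene that did not pass is not shown to be unchanged.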

Other observations

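Of 28 tested checkpoint and repair genes, 1 was lower and 1 higher, with a median log2 fold change of -0.01, where 24.3% of all tested genes were called. Rad9a, a subunit of the checkpoint clamp, had 32.4, 33.0 and 29.3 CPM in Scramble and 24.3, 22.1 and 23.3 CPM in JAG2KO, lower in every JAG2KO library (log2 fold change -0.44, SE 0.09, edgeR adjusted p = 0.00335). Atr, the kinase that answers stalled forks, had 46.2, 44.01 and 47.1 CPM in Scramble and 55.4, 55.8 and 57.8 CPM in JAG2KO, higher in every JAG2KO library (log2 fold change 0.30, SE 0.07, edgeR adjusted p = 0.00819). Of 12 other chromatin and histone message genes, 2 were lower and 1 higher, a share near that over all tested genes; DESeq2 and limma-voom each called 3 lower and 1 higher. The histone chaperone gene Asf1b had 56.9 ± 4.95 CPM in Scramble libraries (SD, n = 3), against 40.3 ± 3.19 CPM in JAG2KO, and Lsm11, which processes the ends of histone messages, had a log2 fold change of -0.34 (edgeR adjusted p = 0.0374). Cbx5, a heterochromatin protein gene, was higher with a log2 fold change of 0.28 (edgeR adjusted p = 0.00677).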
